A study of Homo sapiens with 42 samples.

Results

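In leukaemia cells given a topoisomerase 2 poison, no centromeric or satellite region passed edgeR's test for a difference between 2 kinds of pulldown. These used an antibody to the 2A form of the enzyme (TOP2A) or to the 2B form (TOP2B). This holds for the settings fixed for the test. Some other settings called 2 to 26 regions in single drugs or between drugs. Single replica pairs did differ in their satellites, in opposite directions. The comparison used the 14 pulldown libraries made with drug, of the 42 libraries in the series. They were chosen by their labels alone: every TOP2A and TOP2B library from cells given etoposide (4 replicas, 8 libraries) or mitoxantrone (3 replicas, 6 libraries). The TOP2A and TOP2B libraries of a replica formed a pair, which gave 7 pairs. All 2523 named regions of the count table were used.

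Every library came from KG-1, an established cell line from an acute myelogenous leukaemia, so all groups share 1 genotype. Cells with drug had 100 µM etoposide or 20 µM mitoxantrone for 1 h, and untreated cells had vehicle for the same time. Chromatin was sonicated without formaldehyde, and 4 µg of antibody to TOP2A or 5 µg of antibody to TOP2B was used for each pulldown. Each replica also held an input library with drug, and the 3 matching libraries without drug (7 replicas each), which serve here as the background. The cells are 1 line, and the labels do not say whether replicas were treated on separate days.

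Type II topoisomerases cut both strands of a DNA helix, pass another helix through the gap and reseal it, and during this cycle a tyrosine of each subunit is joined to a DNA 5′ end. Etoposide and mitoxantrone are TOP2 poisons, which slow the resealing step and leave the enzyme joined to the cut DNA. TOP2A is made mainly in dividing cells and is needed to untangle sister chromatids at mitosis, with centromeres among its known mitotic sites. TOP2B is present in dividing and resting cells alike and is known for its part in transcription. Without formaldehyde, enzyme that is covalently held by the drug is the form best kept on DNA through the pulldown.

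Human centromeres are built of repeats. Alpha satellite is found as higher-order repeat arrays (120 regions here, of which 41 are marked live, the kind that carries the kinetochore), as diverged higher-order arrays (103) and as monomeric alpha satellite at the array edges (191). The human satellites 1A (24 regions), 1B (64), 2 (61) and 3 (189) are simpler repeats. Beta satellite (184), gamma satellite (64), a mixed class of other satellites (662) and the ribosomal DNA arrays (5) make up the other repeats. The remaining 856 regions are centric transition regions, stretches, largely free of satellite, that flank and separate the arrays. Region names give the class, the chromosome of the T2T-CHM13 genome and a running number, so mon_7_7 is a monomeric alpha satellite region of chromosome 7.

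The 14 libraries held 552909 to 20401574 reads, of which 23900 to 1088980 lay in named regions. Depth was uneven within pairs. In etoposide replica 2 the TOP2A library had 71055 region reads and the TOP2B library 760335, and in etoposide replica 3 region reads numbered 23900 for TOP2A and 39003 for TOP2B, the lowest of all pairs. Reads set aside for low mapping quality made up 21.5% to 59.7% of TOP2A libraries and 21.2% to 58.4% of TOP2B libraries. In etoposide replica 2 they were 52.1% of the TOP2A library and 29.0% of the TOP2B library. Over the 7 pairs the share of low-quality reads was higher in TOP2A by a mean of 0.21 on the log2 scale (SD 0.31, exact sign-flip permutation test, two-sided p = 0.0781, adjusted p = 0.182 over the 7 tallies). Which classes these reads came from is not known, so the values below describe only the placed part of each class. They are also relative to the other region reads of the library, so a difference that touched all regions alike could not be seen.

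Centric transition regions took 87.6% to 96.9% of region reads in TOP2A libraries and 86.2% to 97.2% in TOP2B libraries. Their TOP2A share over their TOP2B share had log2 ratios from -0.01 to 0.06 and a mean of 0.01 (SD 0.03, n = 7). Of these ratios 5 of 7 had a 95% counting interval that left out 0. As the class makes up most of the denominator, its summed ratio had little room to move. Within the class, the arm-labelled regions in etoposide replica 4 had ratios of -1.15 on chromosome 3 and 1.03 on chromosome 22. The satellites shared the small remainder. Medians over libraries were 1.40% in TOP2A and 2.24% in TOP2B for monomeric alpha satellite, 0.267% and 0.637% for higher-order arrays, and 0.734% and 0.768% for human satellite 3. For the mixed class they were 1.09% in TOP2A and 1.12% in TOP2B. In every class the range of TOP2A libraries overlapped the range of TOP2B libraries.

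No class passed a test for a difference between the antibodies across the 7 pairs. The exact sign-flip permutation test on the mean within-pair log2 ratio, which can reach p = 0.0156 with 7 pairs, gave two-sided p-values of 0.125 to 0.938 for the 12 classes, and the lowest adjusted p was 0.938. Human satellite 1B came nearest, with a mean log2 ratio of 0.74 (SD 0.95, a 1.67-fold higher share in TOP2A, exact p = 0.125). Ribosomal DNA had a mean of 0.41 (SD 0.65, exact p = 0.156). Monomeric alpha satellite had a mean of -0.35 (SD 1.25, exact p = 0.719) and higher-order arrays a mean of -0.13 (SD 1.24, exact p = 0.938). These SDs are the spread between replicas, and they were wider than the mean in each of the 4 classes.

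**Figure D1:**
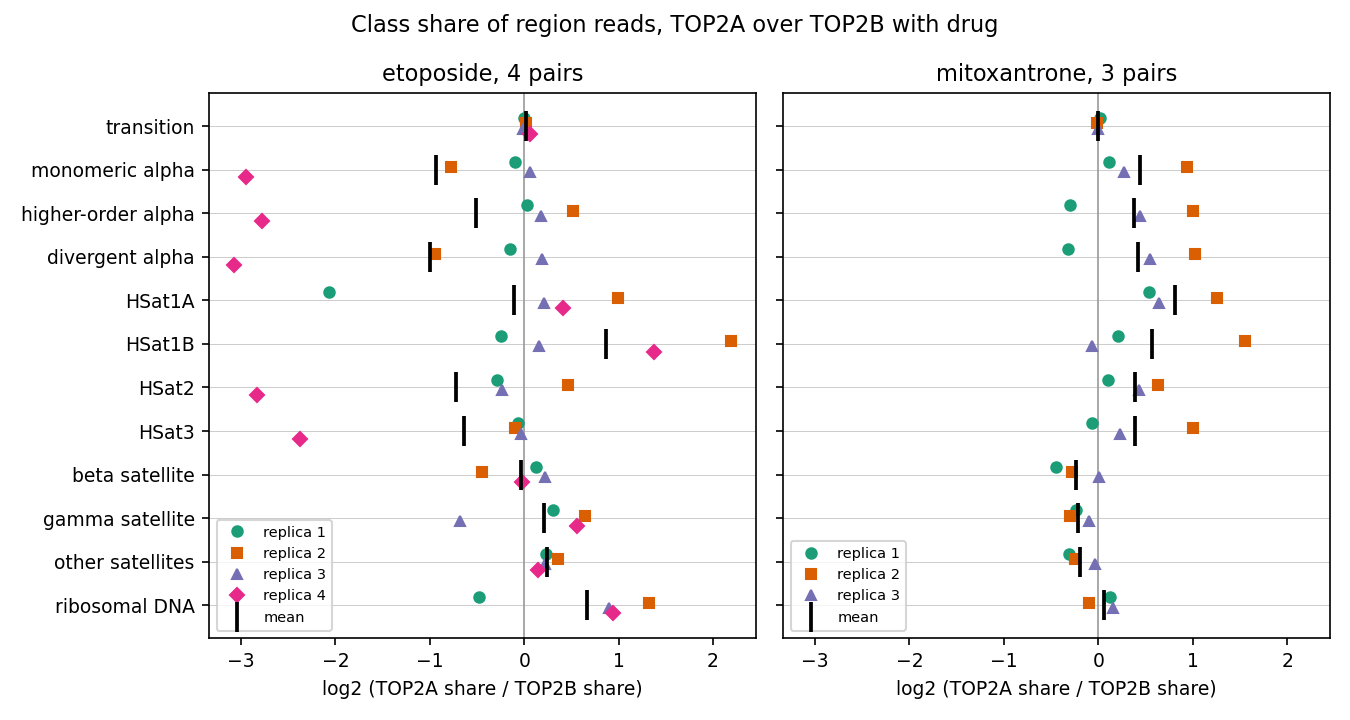
Log2 of the TOP2A share of region reads over the TOP2B share (horizontal axis) for each of the 12 classes (vertical axis), with 1 marker per replica pair, a black bar at the mean, and etoposide and mitoxantrone in separate panels. Etoposide replica 4 sits far below the other pairs in 5 classes, at -2.95 for monomeric alpha satellite and -2.78 for higher-order arrays. Transition regions lie between -0.01 and 0.06 in all pairs, but they hold most region reads, so their ratio had little room to move.

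Within pairs the antibodies did differ beyond counting error. Of 84 class ratios (12 classes in 7 pairs), 59 had a 95% counting interval that left out 0, with 11 of 12 in each of etoposide replicas 2 and 4 and mitoxantrone replicas 1 and 2. The pairs differed in opposite directions.

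Monomeric alpha satellite shows this most plainly. With etoposide its share was 0.303% in TOP2A and 0.324% in TOP2B in replica 1, 2.23% and 3.80% in replica 2, and 4.13% and 3.95% in replica 3. In replica 4 it was 0.389% in TOP2A (95% Wilson interval 0.361% to 0.419%) and 3.00% in TOP2B (2.95% to 3.06%). Replica 4 is thus the only etoposide pair with a large gap, and replica 2 has a smaller one in the same direction. With mitoxantrone the share was 2.41% in TOP2A and 2.24% in TOP2B in replica 1 and 0.730% and 0.605% in replica 3. In mitoxantrone replica 2 it was 1.40% in TOP2A (1.34% to 1.46%) and 0.727% in TOP2B (0.685% to 0.771%), the reverse of etoposide replica 4. Such intervals cover counting error only.

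The input and untreated libraries place both of these pairs. In etoposide replica 4 the input library with drug had 3.13%, close to its TOP2B library, and the untreated libraries had 0.516% in TOP2A, 0.479% in TOP2B and 0.721% in input. So it was the TOP2A library with drug that stood apart from the other drug-treated libraries of its replica. In mitoxantrone replica 2 the input with drug had 0.411%, below both pulldowns. There the untreated pair already differed, with 2.66% in TOP2A, 1.10% in TOP2B and 0.365% in input.

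**Figure D2:**
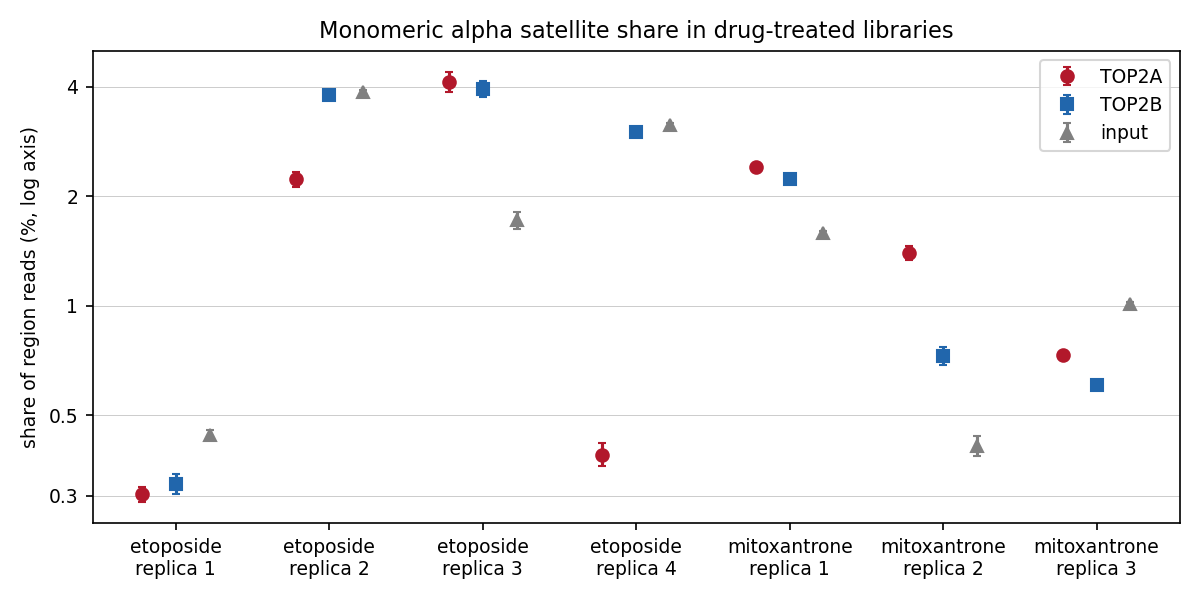
Monomeric alpha satellite as a percentage of region reads in the TOP2A, TOP2B and input libraries of each replica with drug, on a log axis, with bars for the 95% Wilson interval. TOP2A is at 0.389% and TOP2B at 3.00% in etoposide replica 4, while in mitoxantrone replica 2 the order is turned, at 1.40% for TOP2A and 0.727% for TOP2B.

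Other repeat classes followed monomeric alpha satellite in these 2 pairs. In etoposide replica 4 the log2 ratio of TOP2A over TOP2B was -3.07 for diverged higher-order arrays, -2.83 for human satellite 2, -2.78 for higher-order arrays and -2.37 for human satellite 3. The higher-order arrays held 0.0927% of TOP2A reads (0.0797% to 0.108%) and 0.637% of TOP2B reads (0.612% to 0.664%) there. In mitoxantrone replica 2 the same classes had ratios of 1.03, 0.63, 1.01 and 1.00. Not every repeat moved in this way in etoposide replica 4: gamma satellite had a ratio of 0.56, human satellite 1B 1.37 and ribosomal DNA 0.94, all in favour of TOP2A. Live arrays had a ratio of -2.50 and other higher-order arrays -4.16 in that pair, so both kinds were low.

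Etoposide replica 4 decided the sign of several means. Without it the 7-pair mean became 0.09 for monomeric alpha satellite, 0.31 for higher-order arrays, 0.06 for diverged arrays, 0.19 for human satellite 2 and 0.16 for human satellite 3. The etoposide mean of monomeric alpha satellite was -0.94 (SD 1.39, n = 4) with this pair and -0.27 without it. The mitoxantrone mean was 0.44 (SD 0.44, n = 3), and 0.19 without mitoxantrone replica 2.

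Human satellite 1A, an AT-rich repeat, was higher in TOP2A in 6 of 7 pairs. The log2 ratios with etoposide were -2.07, 1.00, 0.21 and 0.41 in replicas 1 to 4, and with mitoxantrone they were 0.53, 1.25 and 0.64 in replicas 1 to 3. The low pair rests on few reads, 9 in TOP2A (0.00156% of region reads, interval 0.00082% to 0.00296%) and 20 in TOP2B (0.00675%, 0.00437% to 0.0104%). The mean was 0.28 (SD 1.10, p = 0.531, exact sign-flip permutation test). Untreated pairs ranged from -0.80 to 1.12 with a mean of 0.00.

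Satellite 1B, found mostly on the Y chromosome, had log2 ratios of -0.24, 2.19, 0.15 and 1.37 with etoposide. The mitoxantrone pairs of satellite 1B had 0.20, 1.55 and -0.06. Its highest pair, etoposide replica 2, held 0.135% in TOP2A (0.111% to 0.165%) and 0.0297% in TOP2B (0.0261% to 0.0339%). Of its 7 pairs 5 were higher in TOP2A. Ribosomal DNA had ratios of -0.48, 1.32, 0.89 and 0.94 with etoposide, against 0.12, -0.10 and 0.16 with mitoxantrone. The replica 3 value came from 16 TOP2A reads and 14 TOP2B reads, at shares of 0.0669% and 0.0359%.

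In the mixed class of other satellites every etoposide pair lay above 0 and every mitoxantrone pair below it. Its TOP2A share over its TOP2B share had log2 ratios of 0.23, 0.36, 0.22 and 0.15 with etoposide (mean 0.24, SD 0.09, a 1.18-fold higher share), all above 0. With mitoxantrone they were -0.31, -0.25 and -0.03 (mean -0.20, SD 0.15). The 2 drugs do not overlap in this class, and the etoposide mean was 0.44 above the mitoxantrone mean, with p = 0.0286 by an exact two-sided permutation of the drug label, the smallest p that 4 against 3 pairs allow. Over the 12 classes the adjusted p was 0.343, so the difference did not pass the correction. The size also moved with the denominator: over all reads of a library the etoposide mean was 0.04. Without drug the ratios of this class were -0.03, 0.02, 0.05 and 0.02 in the etoposide replicas and 0.00, -0.37 and -0.16 in the mitoxantrone replicas, so the untreated mitoxantrone pairs also lay at or below 0.

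For the other 11 classes the exact p of etoposide minus mitoxantrone was 0.143 or higher, with the lowest for monomeric alpha satellite (difference -1.38), whose 4 etoposide ratios also all lay below its 3 mitoxantrone ratios. Within 1 drug neither test can reach 0.05, since the smallest p is 0.125 for 4 pairs and 0.25 for 3. Etoposide and mitoxantrone replicas were also labelled as separate sets, in part sequenced in different orders with different read lengths, so drug and set of replicas cannot be told apart.

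Single regions were tested with edgeR's quasi-likelihood test with the pair as a block, over the 1189 regions that passed a filter on low counts. In the 7 pairs together 0 of 1189 regions (0%) passed an adjusted p of 0.05. At an unadjusted p under 0.05 there were 13 regions, where 59.45 are expected if nothing differs. DESeq2 and limma voom with the same block called 0 as well, with 24 and 28 regions at an unadjusted p under 0.05. TOP2A was higher in 539 regions and lower in 650, with a median log2 fold change of -0.03. In counts simulated from these libraries the same test found 64.3% of regions changed 2-fold and 95.6% of those changed 4-fold. Those simulated regions were independent of each other, which the real ones are not. In that simulation 174 of 1105 regions were changed. With so many, the adjusted threshold is easier to pass than where few regions differ. The rates therefore do not say how often a difference in few regions would be found. The same limit holds for the rates given below, with 191 or 193 regions changed.

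Direction within classes was lopsided without any region passing. Of monomeric alpha satellite regions 100 of 111 tested were lower in TOP2A (median -0.34), and of diverged arrays 28 of 31 (median -0.37). Of satellite 1A regions 16 of 17 were higher (median 0.43), of satellite 1B regions 19 of 21 (median 0.58), against the median of -0.03 over all regions. Regions of a class share the same pair, so these counts repeat the pair values given above and are no further evidence. Regions of the acrocentric chromosomes, which carry the ribosomal DNA, were split 166 higher and 192 lower with a median of -0.03.

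The region with the most reads of all, ct_8_1 in the short-arm transition of chromosome 8, was nearly level between the antibodies. It took 6.32% of the region reads of the 14 libraries. Its log2 ratios with etoposide were 0.03, -0.14, -0.03 and 0.16 and with mitoxantrone 0.06, -0.05 and -0.03, for a mean of 0.00 (SD 0.09). The other 4 regions with the most reads (ct_17_31, ct_16_69, ct_18_10 and ct_8_17) had means from -0.05 to 0.07.

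Among regions with a mean of at least 50 reads, hsat1A_13_1 had the smallest p on the higher side. This satellite 1A region of chromosome 13 is also the satellite 1A region with the most reads. With etoposide it had 2, 17, 80 and 21 reads in TOP2A and 10, 52, 105 and 20 in TOP2B in replicas 1 to 4. With mitoxantrone it had 266, 116 and 32 reads in TOP2A and 101, 41 and 15 in TOP2B. Scaled to depth, TOP2A was higher in 6 of 7 pairs, and the pair that went the other way had 12 reads in all. The fitted log2 fold change was 0.80 (SE 0.34, adjusted p = 0.999, edgeR quasi-likelihood).

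The lower side was led by ct_16_6, a transition region of chromosome 16 and the named region that was lower in TOP2A in 7 of 7 pairs. Its TOP2A libraries held 73, 7, 0 and 15 reads with etoposide and 151, 13 and 143 with mitoxantrone. Its TOP2B libraries held 40, 106, 5 and 66 with etoposide and 130, 29 and 152 with mitoxantrone. Scaled to depth, the log2 ratios were -0.10 to -2.75 with etoposide and -0.25 to -1.06 with mitoxantrone. The 0 stands against only 5 TOP2B reads in that shallow replica. The fitted log2 fold change was -0.55 (SE 0.24, adjusted p = 0.999), and untreated pairs averaged -0.02 (SD 0.24).

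Ribosomal DNA region rDNA_21_1 of chromosome 21 had log2 ratios of -0.06, 0.73, 2.05 and 0.75 with etoposide and 0.10, -0.17 and 0.35 with mitoxantrone. Its highest value came from 16 TOP2A reads and 6 TOP2B reads. The other named regions of the pooled comparison were ct_12_9, ct_20_4 and censat_19_6 on the higher side, with fitted values of 0.40, 0.29 and 0.44. On the lower side they were ct_16_64, censat_15_11, mon_15_1 and censat_22_63, at -0.36, -0.64, -0.57 and -0.45. All had an adjusted p of 0.999.

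With etoposide alone, 0 of 1189 regions (0%) passed in edgeR, although 167 had an unadjusted p under 0.05, 37 of them higher in TOP2A and 130 lower. DESeq2 called 2 regions, censat_19_11 and censat_19_6, both higher in TOP2A, and voom called 0. Unadjusted counts were 169 in DESeq2 and 126 in voom. Without etoposide replica 4, edgeR called 9 regions, 7 higher and 2 lower, so that pair also decides the count. The 7 higher ones were the satellite 4 regions censat_19_7, censat_19_11, censat_X_2 and censat_X_3, the satellite 3 regions hsat3_Y_10 and hsat3_Y_32, and hor_8_2. The 2 lower ones were mon_7_7 and hsat3_14_16. All were named after their values were seen. Region hsat3_Y_32 had 0 reads in both pulldowns of replicas 1 and 3, and 14 TOP2A and 16 TOP2B reads in replica 2. The simulation found 42.7% of 2-fold and 78.4% of 4-fold changes in the etoposide contrast.

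In the fit of all 14 libraries, the 130 lower regions with a small unadjusted p were mostly repeats of classes low in replica 4. They held 51 monomeric alpha satellite regions, 29 of satellite 3, 11 diverged arrays, 10 of satellite 2 and 8 higher-order arrays. In monomeric alpha satellite 110 of 111 regions were lower (median -1.07), in satellite 2 35 of 35 (median -1.09) and in diverged arrays 31 of 31 (median -1.36). Gamma satellite, whose arrays lie close to active centromeres, went the other way in 27 of 28 regions (median 0.47). The median over all regions was -0.13. Summed gamma satellite had log2 ratios of 0.30, 0.64, -0.68 and 0.56 in replicas 1 to 4. Replica 3 was thus reversed, beyond counting error. All these counts of regions repeat the same 4 pairs and are no further evidence.

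Region mon_7_7, on chromosome 7, shared the lowest adjusted p of this comparison with mon_15_1 and others. In replicas 1 to 4 it held 67, 67, 38 and 34 reads in TOP2A and 42, 1190, 108 and 407 in TOP2B. As CPM, scaled to all region reads of the library, these were 116, 943, 1590 and 188 in TOP2A, against 142, 1565, 2769 and 1141 in TOP2B. TOP2A was lower in 4 of 4 pairs, with log2 ratios of -0.29, -0.72, -0.79 and -2.58. The fitted log2 fold change was -1.11 (SE 0.26, adjusted p = 0.125).

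For mon_15_1, on chromosome 15, the log2 ratios were -1.11, -0.63, -1.62 and -2.67, from 9, 17, 1 and 8 reads in TOP2A and 10, 290, 7 and 106 reads in TOP2B. Its fitted change was -1.46 (SE 0.35, adjusted p = 0.125). Region mon_20_5 had -1.47 (SE 0.37, adjusted p = 0.165) and was lower in 3 of 4 pairs. On the higher side ct_9_22 had 0.85 (SE 0.28, adjusted p = 0.182) and was higher in 4 of 4 pairs, and censat_15_10 had 1.02 (SE 0.35, adjusted p = 0.19).

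**Figure D3:**
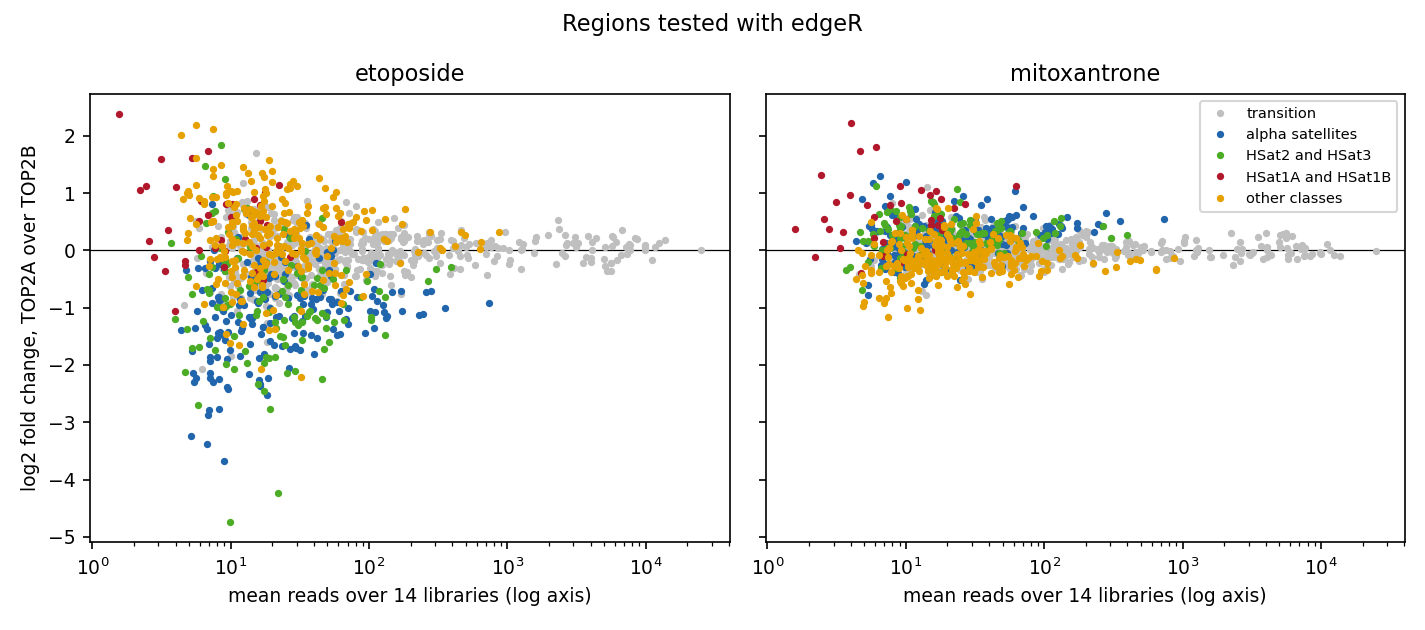
Fitted log2 fold change of TOP2A over TOP2B (vertical axis) against the mean reads of each tested region over 14 libraries (log axis), with etoposide and mitoxantrone in separate panels and colours for groups of classes. Alpha satellite regions (blue) include the monomeric ones, which lie mostly below 0 with etoposide (110 of 111) and mostly above 0 with mitoxantrone (83 of 111), and 0 regions passed the threshold.

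Human satellite 4, a subgroup of the mixed class with tested regions on chromosomes 16, 19 and X, was looked at after its values were seen and is given as a description. All 14 tested regions of 15 were higher in TOP2A with etoposide (median 1.06, 11 of them with an unadjusted edgeR p under 0.05). Over all regions 497 of 1189 were higher, 37 of them with such a p. The 14 regions share the same 4 pairs, so their count repeats the pair values below and is no further evidence. Its summed reads in etoposide replica 1 numbered 754 for TOP2A, 112 for TOP2B and 97 for input, or 0.131%, 0.0378% and 0.0107% of region reads. In replica 2 its share of the TOP2A library was 0.336%, against 0.132% of the TOP2B library and 0.106% of the input. TOP2A thus stood above both other libraries in replicas 1 and 2, and by less in replica 4, where its log2 ratio was 0.89 over input and 0.17 over TOP2B. In replica 3 both pulldowns lay below input, with log2 ratios of -1.73 for TOP2A and -1.35 for TOP2B. With mitoxantrone the log2 ratio of TOP2A over input was 0.06, -0.99 and -0.15 in replicas 1 to 3.

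The log2 ratio of TOP2A over TOP2B in satellite 4 was 1.78, 1.35, -0.38 and 0.17 in replicas 1 to 4 and -0.33, -0.30 and -0.04 with mitoxantrone. Replica 3 had only 20 reads in TOP2A and 43 in TOP2B, while replica 4 had 603 and 1054. Untreated pairs ranged from -0.32 to 0.88, and 6 of 7 were higher in TOP2A. The 2 regions that DESeq2 called belong to chromosome 19, and censat_19_6, annotated as satellite 4, had log2 ratios of 1.20, 1.14, -0.03 and 0.47 with etoposide.

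With mitoxantrone alone, 0 of 1189 regions (0%) passed in edgeR, and 17 had an unadjusted p under 0.05, 15 higher in TOP2A and 2 lower. DESeq2 and voom called 0, with 11 and 63 regions at an unadjusted p under 0.05. A fit of the 6 mitoxantrone libraries alone called 4 regions, all higher in TOP2A: hsat1A_13_1, mon_11_4, mon_8_8 and mon_8_1. That fit takes its spread from the mitoxantrone pairs and leaves out the wider spread of the etoposide pairs. The simulation found 49.5% of 2-fold and 93.8% of 4-fold changes here.

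Satellite 1A led the mitoxantrone comparison, with 16 of 17 regions higher in TOP2A (median 0.80, 7 with an unadjusted p under 0.05). Region hsat1A_13_1 had log2 ratios of 0.86, 1.55 and 0.91, higher in 3 of 3 pairs, and a fitted change of 1.12 (SE 0.41). Monomeric alpha satellite was higher in 83 of 111 regions (median 0.32) and satellite 3 in 77 of 94 (median 0.22). Gamma satellite was lower in 26 of 28 (median -0.26), as was beta satellite with LSAU repeats in 29 of 30 (median -0.30) and SST1 in 33 of 37 (median -0.25). Over all regions the median was 0.03, and 535 of 1189 were lower. Regions of a class share the same 3 pairs, so these counts are no further evidence. Summed gamma satellite had log2 ratios of -0.23, -0.30 and -0.10 with drug in replicas 1 to 3, and 0.12, -0.48 and -0.57 without. LSAU repeats had -0.51, -0.36 and 0.00 with drug, and 0.19, -0.58 and -0.46 without. SST1 had -0.37, -0.39 and -0.14, against 0.04, -0.72 and -0.23. All 3 were thus further below 0 without drug in replicas 2 and 3, but above 0 in replica 1. For the other named regions, fitted values were 0.76 for mon_X_5, 1.04 for mon_8_8, -0.60 for censat_Y_26, -0.42 for ct_9_22 and -0.33 for bsat_1_1.

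The size of the monomeric values depended on replica 2. Region mon_8_1, on chromosome 8 and the deepest of its class, had log2 ratios of 0.10, 1.35 and 0.29 with mitoxantrone, from 1085, 303 and 1078 reads in TOP2A and 699, 124 and 788 in TOP2B. With etoposide the same region had -0.13, -0.67, 0.20 and -3.24. Its untreated pairs averaged 0.34 (SD 0.60).

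Whether the antibody difference depended on the drug was tested as the etoposide difference minus the mitoxantrone difference in the same edgeR fit. Again 0 of 1189 regions (0%) passed, with a lowest adjusted p of 0.186, and DESeq2 and voom called 0. With no filter on low counts edgeR called 19 regions, 1 above 0 and 18 below, among them mon_7_7 (adjusted p = 0.00117), mon_X_5 and mon_12_6 (0.00726 each) and ct_22_103 (0.0437). Unadjusted p-values under 0.05 were found for 167 regions in edgeR (32 above 0, 135 below), 148 in DESeq2 and 166 in voom. The simulation found only 15.6% of 2-fold and 62.1% of 4-fold differences, so this test had the least reach. Of monomeric alpha satellite regions 108 of 111 were below 0 (median -1.47) and of gamma satellite regions 28 of 28 above 0 (median 0.69), against a median of -0.18 over all regions. Summed gamma satellite in etoposide replica 3 (-0.68) nevertheless lay below every mitoxantrone pair. These counts of regions repeat the same pairs and are no further evidence. With relative log expression factors in place of TMM the overall median was -0.03, and the counts above and below 0 were 579 and 610 in place of 487 and 702.

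Region mon_X_5 had a difference of -2.04 (SE 0.46, adjusted p = 0.186). Its log2 ratios with etoposide were -0.77, -0.62, -0.94 and -2.63 and with mitoxantrone 0.39, 1.86 and 0.60, so the drugs do not overlap. The same held for mon_7_7 (-1.57, SE 0.38), mon_12_6 (-1.54, SE 0.41), ct_22_103 (0.79, SE 0.27) and ct_9_22 (1.27, SE 0.39). All were named for small p-values in this edgeR fit, which favours such separation, so it is no further evidence. Transition region ct_22_103 was well covered, with 62 to 3852 reads in etoposide TOP2A libraries and 71 to 1921 in etoposide TOP2B libraries. Its log2 ratios were 0.04, 0.52, 0.51 and 1.03 with etoposide and -0.32, -0.36 and -0.08 with mitoxantrone. Without drug they were -0.22, 0.04, -0.09 and -0.11 in the etoposide replicas and 0.17, -0.79 and -0.32 in the mitoxantrone replicas. Mitoxantrone replicas 2 and 3 thus lay further below 0 without drug than with it, while replica 1 lay above 0 without drug. Gamma satellite gsat_X_1 had a difference of 1.03 (SE 0.38).

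The test against untreated cells asked whether the signed log2 ratio of TOP2A over TOP2B moved in 1 direction with drug. Gaps that widened in opposite directions in different replicas cancel in it, so it cannot show whether the antibodies differed more with drug. In the fit of 28 pulldown libraries, 0 of 1237 regions (0%) passed for the antibody difference with drug minus that without. The counts at an unadjusted p under 0.05 were 22 in edgeR, 27 in DESeq2 and 37 in voom, and both other tools called 0. Over the 12 classes the lowest exact p was 0.172, for ribosomal DNA, whose ratio was 0.49 higher with drug (SD 0.66, adjusted p = 0.667). In this test hsat1A_13_1 had a value of 0.80, ct_17_1 0.30 and ct_7_44 0.38, while censat_15_11 had -0.77, ct_9_11 -0.48 and ct_6_3 -0.56.

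The distance between the libraries of a pair was measured over the 386 regions with a mean of at least 50 reads, as the SD of the log2 ratio of TOP2A over TOP2B beyond that of counting. This measure was chosen after the data were seen. With drug it was 0.23, 0.45, 0.44 and 1.12 in etoposide replicas 1 to 4 and 0.20, 0.47 and 0.14 in mitoxantrone replicas 1 to 3. Without drug it was 0.06, 0.01, 0.19 and 0.10 in the etoposide replicas and 0.09, 0.74 and 0.16 in the mitoxantrone replicas. The antibodies were farther apart with drug in 5 of 7 replicas, including all 4 etoposide replicas. In etoposide replica 3 with drug the SD was 1.05, most of it counting (0.96). Depth also differed by treatment. TOP2A region reads with and without drug were 71055 and 589193 in etoposide replica 2, and 23900 and 95012 in replica 3. In replicas 1 and 4 they were higher with drug (577168 and 247902, 181219 and 154852). What part depth had in these distances was not tested.

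The mean distance was 0.44 with drug and 0.19 without, a difference of 0.24 (SD 0.41) with an exact sign-flip permutation p of 0.172. Without etoposide replica 4 the difference was 0.11, with an exact p of 0.344. The correlation of log2 values between TOP2A and TOP2B over these regions was 0.883 to 0.997 with drug. In etoposide replica 4 the input library correlated at 0.991 with TOP2B and at 0.866 with TOP2A. Across replicas with drug, input correlated at 0.866 to 0.993 with TOP2A and at 0.901 to 0.996 with TOP2B. TOP2B in etoposide replica 2 had 1 of 386 regions more than 2-fold from input, and TOP2A in the shallow etoposide replica 3 had 135. How much of each pulldown was enzyme-bound DNA was not tested.

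**Figure D4:**
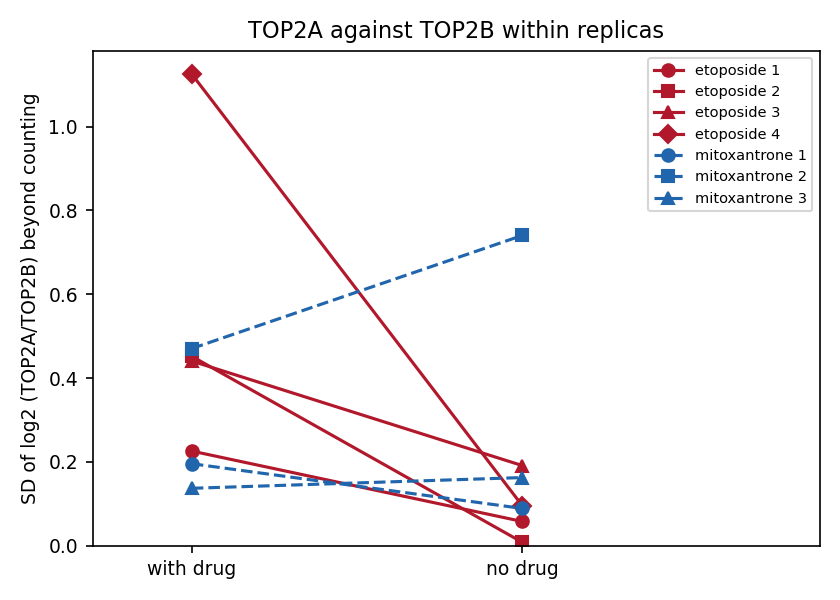
Excess SD (log2 units) of the TOP2A over TOP2B ratio across 386 regions in each replica, with drug and without drug. Points with drug lie above those without drug in 5 of 7 replicas, with etoposide replica 4 at 1.12 against 0.10.

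Summed by chromosome, 0 of 24 chromosomes passed an adjusted p of 0.05 for a difference between TOP2A and TOP2B by the exact sign-flip permutation test. Chromosome 9 had the lowest p, with a mean log2 ratio of -0.07 (exact p = 0.0781, adjusted p = 0.953). The pairs differed among themselves much as they had by class. In etoposide replica 4 TOP2A was low on chromosomes 3 (-1.17), 6 (-0.88), 5 (-0.78), X (-0.61) and 21 (-0.59) and high on 20 (0.47) and 17 (0.46).

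Mitoxantrone replica 2 showed the opposite profile, high on chromosomes 3 (0.57), 6 (0.41), 5 (0.35) and 21 (0.30) and low on 22 (-0.19), 17 (-0.16) and 20 (-0.13). Across the 24 chromosomes the profiles of these pairs correlated at -0.955. Mitoxantrone replicas 2 and 3 correlated at 0.936, and etoposide replicas 2 and 4 at 0.765. Etoposide replica 3 went against these, at -0.527 with etoposide replica 2 and -0.475 with etoposide replica 4. With the mitoxantrone pairs it correlated at 0.521 to 0.551. Etoposide replica 1 correlated at -0.201 to 0.040 with the other pairs. Chromosomes are not independent replicates, and these values only describe the libraries. Transition regions carry most of the reads, and in the arm-labelled ones alone chromosome 3 had -1.15 in etoposide replica 4 and 0.57 in mitoxantrone replica 2. The untreated pairs had 0.04 and 0.85 there.

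**Figure D5:**
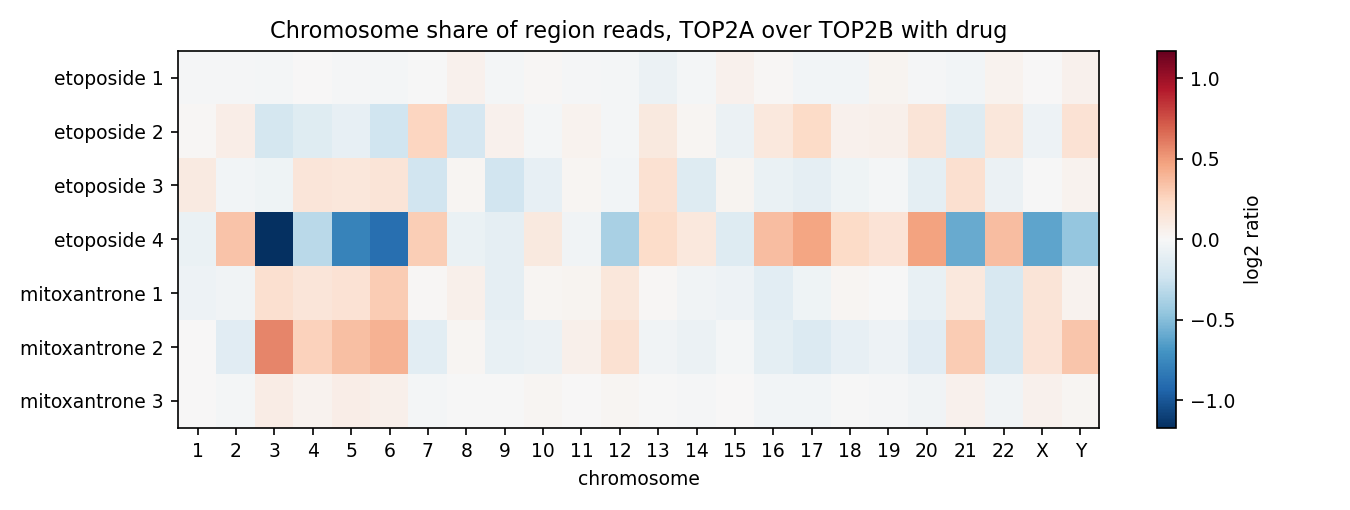
Log2 ratio of TOP2A over TOP2B share of region reads by chromosome in each of the 7 pairs with drug, as a colour scale (rows are pairs, columns are chromosomes). Etoposide replica 4 is lowest on chromosome 3 (-1.17), where mitoxantrone replica 2 is at 0.57, and the other pairs lie nearer to 0.

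Etoposide replicas 3 and 4 and mitoxantrone replica 2 were sequenced in the same order. Without these 3 pairs the mean log2 ratio of monomeric alpha satellite was -0.12 and that of higher-order arrays 0.17. What part the low mapping quality share or depth had in the pair differences was not tested. Low-quality reads in etoposide replica 4 made up 40.4% of the TOP2A library and 33.0% of the TOP2B library, and in mitoxantrone replica 2 46.2% of TOP2A and 40.1% of TOP2B.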

How the data were processed

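Per the labels' protocols, pulled-down DNA was treated with TDP2, digested with BsmAI and made into Illumina TruSeq libraries. Per the submitters' processing notes, the authors used Trimmomatic 0.36, BWA 0.7.17, T2T-CHM13 and HTSeq, given as 2.7.13. The counting options and mapping options are not stated in them. The deposited values are raw read counts per region, with no normalisation, and 5 tally rows that were left out of library sizes and tests. Per the labels, read length was 38 bp in etoposide replica 1, 100 bp in mitoxantrone replica 1 and 50 bp otherwise. The 7 replicas lay in 5 sequencing orders.

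Region counts went into edgeR 4.0.16 (R 4.3.3, TMM, filterByExpr minimum count 10, robust quasi-likelihood, two-sided, Benjamini-Hochberg over all regions tested, threshold 0.05) with the pair as a block. Drug contrasts shared 1 fit of 14 libraries. DESeq2 1.42.0, limma 3.58.1 voom, other scalings and filters, single drugs and left-out replicas were alternatives. Scripts were tested on simulated counts. Class shares were class reads plus 0.5 over region reads of a library, compared as within-pair log2 ratios by exact permutation (scipy 1.17.1, Python 3.11.15), adjusted over 12 classes or 24 chromosomes.

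Pairing comes from the replica label shared by both libraries. In a check over 386 regions, deviations from the group mean correlated at -0.320 to 0.941 within pairs, with 6 of 7 above 0.1. Etoposide replica 4 had the negative value. No 2 of the 14 libraries were identical in 91 pairs. The labels do not state separate cultures, so p-values measure only the spread between samples, which may be technical.

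Named regions were up to 8 at each end past the threshold with a mean of at least 50 reads and 1 sign in all pairs. As none qualified, they were the 5 (7 pairs) or 3 (other comparisons) with the smallest p at each end, plus the region with the most reads in each class and the 5 with the most reads. In all 38 regions were named by this rule. The comparison, classes and region groups were chosen with earlier results of these data known. Region coordinates and sequences were not used here.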

Additional observations from a re-analysis of the deposited data

Results flagged for a closer look

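Replica pairs that stood apart from the rest were sought in 114 sets of 7 pairs or of the 4 etoposide pairs with Dixon's test, and 16 were found, where chance gives about 1 in 20. Etoposide replica 4 was the lowest pair for 3 classes. Its log2 ratio of TOP2A over TOP2B was -2.78 for higher-order arrays, among both the 7 pairs and the 4 etoposide pairs. It was -2.37 for human satellite 3, also in both sets, and -2.83 for human satellite 2 among the 7 pairs. It was also the lowest etoposide pair for mon_X_5 (-2.63) and the highest pair for ct_16_69 (0.45). Etoposide replica 1 was the lowest pair for human satellite 1A (-2.07) and for hsat1A_13_1 (-3.03).

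Etoposide replica 2 stood apart in its read tallies. Its TOP2A over TOP2B log2 ratio was 0.845 for the share of low mapping quality reads, -0.549 for region reads and -0.569 for reads outside the regions. Etoposide replica 3, the shallowest pair, was lowest for ct_16_6 (-2.75), ct_7_44 (-0.34) and gsat_8_7 (-0.66), and highest for rDNA_21_1 (2.05).

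In 1 class and 6 named regions every etoposide pair lay on one side of 0 and every mitoxantrone pair on the other. The etoposide mean minus the mitoxantrone mean of the pair ratios was 0.44 for the mixed satellite class, where 5 of 7 ratios lay beyond counting error. It was 0.78 for ct_22_103, 1.33 for ct_9_22, -1.59 for mon_12_6, -1.71 for mon_15_1, -1.59 for mon_7_7 and -2.19 for mon_X_5. These 6 regions had been named for small p-values in edgeR fits of the same libraries, so their separation is no further evidence. The class difference had an adjusted p of 0.343 by exact permutation, and none of the regions passed the edgeR test of this difference, whose lowest adjusted p was 0.186. With no filter on low counts 4 of the 6 regions did pass it, mon_7_7 (0.00117), mon_X_5 and mon_12_6 (0.00726 each) and ct_22_103 (0.0437).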

How the results depend on the processing

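The count of called regions was 0 in the main setting of all 5 region comparisons. With no replicate block it was also 0 in each, with 2, 36, 0, 11 and 1 regions at an unadjusted p under 0.05 for the pooled, etoposide, mitoxantrone, drug-difference and with-drug minus without-drug comparisons. In the etoposide comparison it was 2 in DESeq2 and 26 with no filter on low counts (2 higher, 24 lower), and 0 to 9 with 1 replicate left out (9 without etoposide replicate 4). The drug difference gave 19 with no filter (1 higher, 18 lower), and mitoxantrone 4 in its own libraries. The cause was not tested.

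Several class means, none past the threshold, changed sign or, for single drugs, moved by more than the replicate spread. As shares of all reads, the 7-pair mean log2 ratio was -0.0865 for the mixed satellites, -0.130 for transition regions and -0.113 for gamma satellite. Transition regions then had -0.124 for etoposide minus mitoxantrone, -0.0798 for drug minus no drug, -0.183 with etoposide and -0.0587 with mitoxantrone, and the mixed satellites 0.0418 with etoposide. Outside transition regions, the mixed satellites had 0.467 with etoposide and beta satellite 0.0614 for drug minus no drug. Without the 3 pairs of the shared sequencing order, the 7-pair comparison gave 0.172 for higher-order arrays, 0.177 for satellite 2 and 0.0032 for satellite 3. Drug minus no drug gave 0.159, 0.251 and 0.146, and etoposide minus mitoxantrone 0.204 for higher-order arrays and -0.0033 for transition regions. Without etoposide 4 and mitoxantrone 2 together, a choice made after seeing the data, the 7-pair comparison gave 0.173 for higher-order arrays, 0.0951 for satellite 2 and -0.0129 for gamma satellite. Drug minus no drug gave 0.294, 0.242 (satellite 2) and 0.221 (satellite 3), and etoposide minus mitoxantrone 0.171 for higher-order arrays and -0.0081 for transition regions.

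With 1 replicate left out, the 7-pair mean ranged from -0.626 to 0.0575 for diverged arrays, -0.0759 to 0.144 for gamma satellite, -0.319 to 0.312 for higher-order arrays, -0.393 to 0.185 for satellite 2, -0.399 to 0.164 for satellite 3 and -0.562 to 0.0864 for monomeric alpha satellite. Drug minus no drug ranged from -0.564 to 0.186, -0.496 to 0.155 and -0.438 to 0.131 for higher-order arrays, satellite 2 and satellite 3. Etoposide minus mitoxantrone ranged from -0.00115 to 0.0236 for transition regions and -0.137 to 0.796 for satellite 1B. The other 645 values of these comparisons kept their direction and side of the threshold, or moved by less than the replicate spread. Region fits had a median of 26.5 reads, where counting alone gives a coefficient of variation of 0.194.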
